A study of Mus musculus with 44 samples.

Results

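The region described here is the 100 kb on the lower-coordinate side of the Slc25a37 promoter on chromosome 14, the side that holds the body of the gene. It was delimited by position, as the restriction fragments that start at or above 69800000 and end at or below 69902000 (mm9). These limits hold 224 fragments in each of the 2 tables of this viewpoint, and they are the same 224. They run from chr14:69800500-69800677 to chr14:69901407-69901431, the farthest and the closest fragment to the viewpoint at about 69903300. The fixation table lists 308806 fragments in all, and the low-input table lists 90020, of which 36087 hold a count. The fragments of the region are 19 to 2352 bp long, with a median of 306 bp, and 9 stretches of 6 to 148 bp between them are not listed.

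Slc25a37 encodes Mitoferrin-1, a carrier of the inner mitochondrial membrane that brings iron into the mitochondria. Erythroid cells need large amounts of it, because the last step of heme synthesis places iron into the porphyrin ring within mitochondria, and the gene is strongly expressed as red cells mature. Capture-C measures which restriction fragments lay close to a chosen viewpoint fragment in the nucleus. Chromatin is fixed with formaldehyde, cut with a restriction enzyme and religated, and the joints with the viewpoint are enriched and sequenced. Contact normally falls with genomic distance, and regulatory elements that come close to a promoter stand out above that fall.

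The cells were primary Ter-119+ erythroid cells, that is, cells carrying a late red-cell surface protein, collected from the spleens of females of the mouse strain C57BL/6. The mice had received phenylhydrazine, which destroys red cells and so drives their production. All libraries share this source and the 1 promoter viewpoint. In the fixation series, NG Capture-C was performed after fixation with 0, 0.5, 1, 2, 3, 4 or 5% formaldehyde, with 2 technical replicates per concentration. The unfixed sample was also homogenised differently. In the low-input series, all fixed with 2% formaldehyde, LI-Capture-C (sonication and adaptor ligation) and Tag-Capture-C (a transposase) were each performed on 200, 100 and 50 ng of 3C library, with 3 libraries per input. The low-input triplicates are called aliquots in one place and biological replicates in another, so p-values may measure technical spread only. The 14 fixation libraries hold 18397 to 61802 unique interactions each, and the 18 low-input libraries hold 1900 to 10761.

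The Slc25a37 promoter contacted the region in all fixed libraries, and the share of its interactions that lay there rose with the concentration of formaldehyde, with small steps after 3%. Without fixation, 20 of 57121 and 36 of 47777 interactions fell in the region, which is 0.0350% (95% Wilson interval 0.0227 to 0.0541) and 0.0754% (0.0544 to 0.104). These intervals cover counting error only. The share was 5.54% and 4.21% in the 2 libraries of 0.5% formaldehyde, and 7.26% and 10.9% in those of 1%. It was 13.3% and 14.1% at 2%, 17.0% and 17.8% at 3%, 17.96% and 18.04% at 4%, and 18.2% and 18.5% at 5%. The replicates of neighbouring concentrations did not overlap up to 5%. The mean share was 17.4% ± 0.610 (SD, n = 2) at 3% and 18.3% ± 0.168 at 5%. Over the means of the 7 concentrations, Pearson's r with the percent of formaldehyde was 0.926 (exact permutation test, two-sided, adjusted p = 0.00833 over 4 measures). Spearman's rho was 1, with p = 0.0004, the smallest that 7 means allow. Without the 2 concentrations farthest from the median, r was 0.957 (exact permutation test, adjusted p = 0.0444). The sample titles are of the same form throughout, but the library names in the sample descriptions differ in form between the 0 to 2% and the 3 to 5% libraries. Within the first set r was 0.983 and the share climbed by 6.71 percentage points per 1% of formaldehyde, and within the second it was 0.988 with 0.472 points per 1%. With 4 and 3 means, the exact permutation test cannot go below p = 0.0833 and 0.333.

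**Figure D1:**
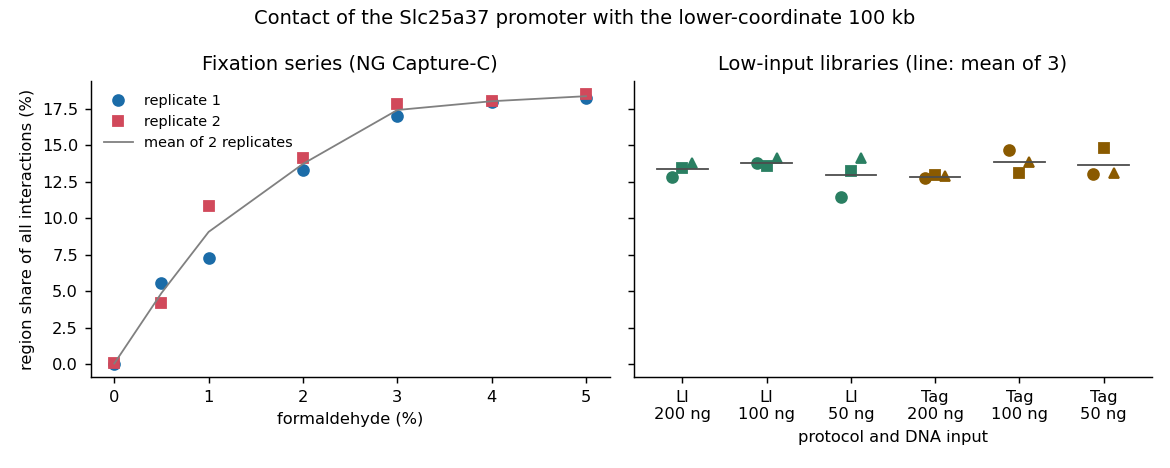
Percent of all unique interactions of the Slc25a37 viewpoint that lie in the lower-coordinate 100 kb, per library, against formaldehyde (left; line, mean of 2 technical replicates) and by protocol and input (right; line, mean of 3). The share climbs from under 0.1% without fixation to about 18% at 3% formaldehyde and above, and all 18 low-input libraries, fixed at 2%, lie between 11.5% and 14.8%.

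The gain was not only a gain of contact within the chromosome over contact with other chromosomes. As a share of the interactions on chromosome 14, the region held 0.803% and 1.62% without fixation. It held 17.4% and 15.8% at 0.5%, 18.6% and 18.9% at 1%, 21.4% and 21.3% at 2%, and between 24.0% and 24.9% in the 6 libraries of 3 to 5% formaldehyde. Pearson's r over the 7 means was 0.781 (exact permutation test, adjusted p = 0.0228), and over the 6 fixed concentrations it was 0.925 (exact permutation test, adjusted p = 0.0148). The 6 libraries of 3 to 5% differed by less than 1 percentage point.

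Along the region, contact was highest next to the promoter and fell in an uneven way. In the 12 fixed libraries, the 10 kb nearest the viewpoint held a mean of 6.17% ± 3.05 of all interactions (SD, n = 12), where the SD contains the effect of fixation. The next zones of 10 kb held 2.55%, 1.51%, 1.30% and 0.820%. From 50 kb on, the zones were lower and fell further up to 90 kb, with 0.303% at 50 to 60 kb, 0.260% at 60 to 70 kb, 0.220% at 70 to 80 kb, 0.157% at 80 to 90 kb and 0.186% at 90 to 100 kb. The part of the region beyond 100 kb, which has only 8 fragments, held 0.0935%. Per kb of listed fragments, mean contact was nearly level between 20 and 40 kb. It was 143.7 interactions per 100000 in the zone of 20 to 30 kb and 138.6 in that of 30 to 40 kb. This mean joins unlike concentrations: from the first of these zones to the second, contact fell from 62.5 to 43.7 at 0.5% and from 111.7 to 88.7 at 1%. At 5% it rose from 177.3 to 196.8. The mean over the 12 fixed libraries then fell to 78.0 at 40 to 50 kb and 32.1 at 50 to 60 kb. As shares of all interactions, the zone of 40 to 50 kb held 2.70 times that of 50 to 60 kb. This ratio of shares lay between 2.21-fold and 3.39-fold in the 12 fixed libraries. It lay between 1.54-fold and 5.30-fold in the 16 low-input libraries with more than 3 counts in the farther zone. The step was not particular to the region. At the same distances on the higher-coordinate side, the ratio of the mean shares was 3.25 in the fixed libraries. In the low-input libraries it was 2.89 there and 2.95 in the region.

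The low-input libraries had the same order of zones up to 60 kb. Their means over 18 libraries were 5.18% ± 0.411 (SD) in the nearest 10 kb and 2.63% ± 0.387 in the next. They were 1.69% ± 0.380 at 20 to 30 kb, 1.57% ± 0.309 at 30 to 40 kb and 0.975% ± 0.188 at 40 to 50 kb. The zone of 50 to 60 kb held 0.331% ± 0.121, and the zones beyond it held between 0.194% and 0.266% up to 100 kb, differences smaller than their SD. The low-input table has no count in any library in the fragments next to the viewpoint on either side, chr14:69901432-69902160 and chr14:69904394-69905815. In the fixation table they hold 1994 and 1560 interactions over all 14 libraries. Both lie outside the limits of the region and of the side it is compared with, so that levels close to the promoter are set beside each other between the tables only with this difference in mind.

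**Figure D2:**
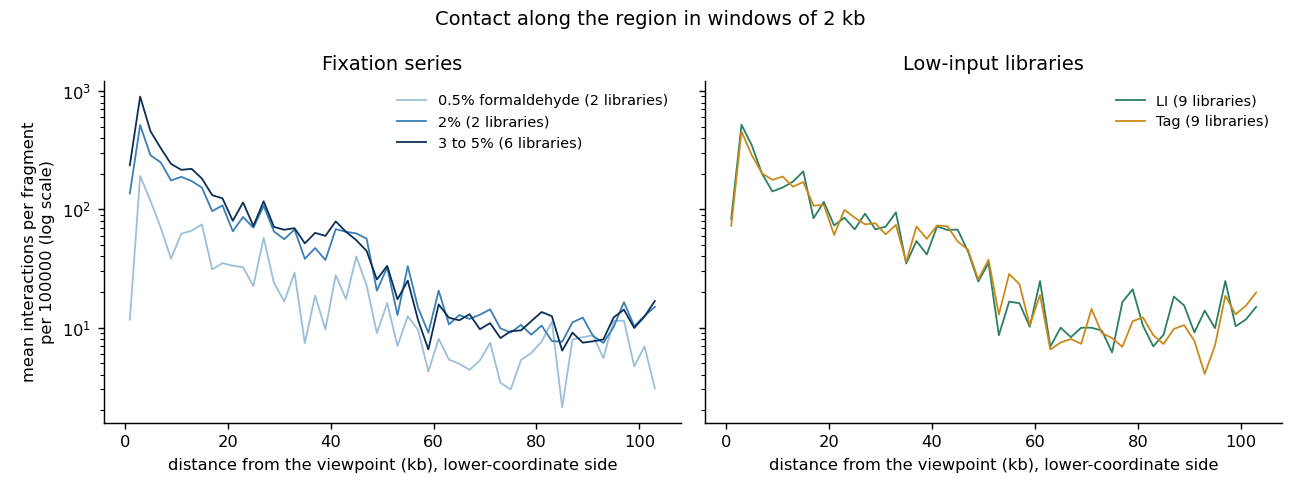
Mean interactions per restriction fragment, per 100000 interactions of a library (log scale), in windows of 2 kb against distance from the viewpoint, for the fixation series (left) and the low-input libraries (right). Contact falls from the promoter and is lower beyond 50 kb than before it. Of the 3 curves of the fixation series, that of 0.5% formaldehyde lies under the others within 40 kb. The unfixed libraries and those of 1% are not drawn. The first window holds 1 fragment of 25 bp.

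Contact was concentrated in a minority of the 224 fragments. The 8 fragments with the highest mean share held 29.1% of the region's contact in the fixed libraries and 25.2% in the low-input libraries, and 7 of these 8 were the same in both tables. In all, 50% of the region's contact lay in 23 and 27 fragments, respectively. All of the fragments that led either table lie within 10 kb of the viewpoint. The highest in both was chr14:69900630-69901406 (777 bp, 2.3 kb from the viewpoint), with means of 971 interactions per 100000 in the fixed and 604 in the low-input libraries. It held 3.50 and 10.5 per 100000 in the unfixed libraries. With fixation it held 344 and 431 at 0.5%, 369 and 618 at 1%, 605 and 1013 at 2%, 1207 and 1320 at 3%, 1445 and 1380 at 4%, and 1474 and 1444 at 5%. The libraries of 3 to 5% thus did not overlap with those of lower concentrations. Second in the fixed libraries was chr14:69900082-69900401 (320 bp, 3.1 kb), with a mean of 668 per 100000 and 468 in the low-input libraries. Next was chr14:69898388-69899249 (862 bp, 4.5 kb), with 455 and 424. The fragments chr14:69900402-69900629, chr14:69896449-69898052, chr14:69899250-69900081 and chr14:69895888-69896448 followed, with 442, 418, 389 and 342 per 100000 in the fixed libraries. The eighth was chr14:69894841-69895249 with 263 in the fixed libraries, and in the low-input libraries it was chr14:69895655-69895887 with 280.

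The closest fragment, chr14:69901407-69901431, is only 25 bp long and ranked 24th by contact in the fixed libraries, with 152 per 100000. The farthest, chr14:69800500-69800677, held 11.2 per 100000. Just outside the far limit, chr14:69799185-69800499 held a mean share of 0.0279%, and just outside the near limit chr14:69901432-69902160 held 0.536%. Across the 224 fragments, Spearman's rho between contact and distance was -0.847 in the fixed and -0.809 in the low-input libraries. At like distances, longer fragments held more contact: rho with length was 0.512 over the 40 fragments within 20 kb, 0.720 over the 72 between 20 and 50 kb, and 0.740 over the 112 beyond 50 kb in the fixed libraries. In the low-input libraries it was 0.672, 0.672 and 0.586. These are descriptions across fragments of the same libraries, which are not independent. Differences between single neighbouring fragments therefore go along with their length.

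How much of the region could be read fragment by fragment differed between the series and with fixation. All 224 fragments held a count in some library of both tables, with a median of 80.5 counts per fragment over the 12 fixed libraries and 21.5 over the 18 low-input libraries. A count was present in all 12 fixed libraries for 141 fragments and in all 18 low-input libraries for 27, whereas 42 fragments held a count in an unfixed library. The unfixed libraries hold 57121 and 47777 interactions in all, and 18 and 29 fragments of the region had a count in them.

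Fixation did not raise contact along the region by an equal factor. Between 0.5 and 5% formaldehyde, the mean share rose 5.10-fold in the nearest 10 kb, 3.61-fold at 10 to 20 kb and 2.84-fold at 20 to 30 kb. It rose 4.50-fold at 30 to 40 kb, more than in the zones on either side of it, and 2.47-fold at 40 to 50 kb. From 50 to 100 kb the fold lay between 1.24 and 1.96, and in the 8 fragments beyond 100 kb it was 2.55. In the nearest 10 kb the fold was 5.00 in replicate 1 and 5.20 in replicate 2, and from 50 kb to the end of the region it was 1.51 and 2.11. From 2 to 5% formaldehyde the fold was 1.57 in the nearest 10 kb and 1.36 at 30 to 40 kb, and beyond 50 kb up to 100 kb it was between 0.777 and 0.922. In that last stretch the libraries of 2 and 5% overlapped in every zone of 10 kb except that at 60 to 70 kb, which was lower at 5%, at 0.228% and 0.256% against 0.287% and 0.337%.

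The share of the region's own interactions that lay in its nearest 20 kb describes the same change in 1 value per library. These 20 kb were counted from the near limit of the region, 69902000, so they end slightly beyond 20 kb from the viewpoint. This value is called the share within 20 kb. It was 40.0% and 61.1% in the unfixed libraries, which rest on 20 and 36 interactions. It was 53.9% and 64.0% at 0.5%, 51.4% and 62.7% at 1%, and 57.1% and 67.8% at 2%. At 3% it was 65.2% and 69.5%, at 4% 68.8% and 68.3%, and at 5% 68.5% and 70.3%. Pearson's r over the 7 means was 0.935 and Spearman's rho was 0.964 (exact permutation tests, adjusted p = 0.00833 and 0.00370). The replicate 1 libraries of 0.5 to 2% stood apart: they were 10.1 to 11.3 points below replicate 2 of the same concentration, whereas at 3 to 5% the replicates differed by -0.478 to 4.24 points. With replicate 1 left out at every concentration r was 0.910, and with replicate 2 left out it was 0.927 (exact permutation tests, adjusted p = 0.0163 and 0.00794). What set these 3 libraries apart was not tested.

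**Figure D3:**
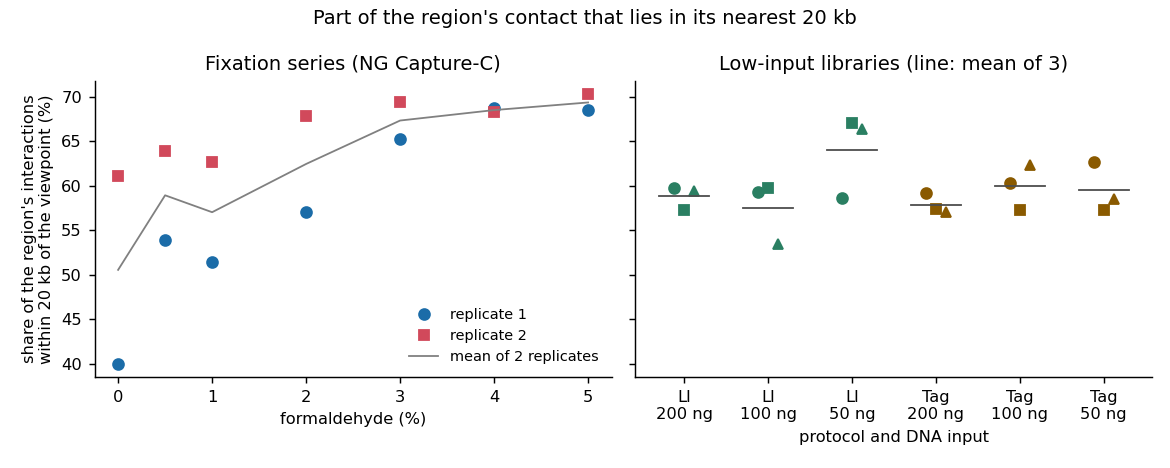
Percent of the region's interactions that lie in its nearest 20 kb, counted from its near limit at 69902000, per library, against formaldehyde (left) and by protocol and input (right; circles, squares and triangles are replicates 1, 2 and 3). At 0.5 to 2% formaldehyde replicate 1 lies about 10 points below replicate 2, and at 3 to 5% both lie between 65.2% and 70.3%.

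Single fragments were tested against formaldehyde with edgeR's quasi-likelihood test over the 6 fixed concentrations, scaled so that a change is relative to all tested fragments, which all lie on chromosome 14. Of 294 fragments tested, 60 rose (20.4%) and 70 fell (23.8%) at an adjusted p under 0.05. Of the 224 fragments of the region, 133 passed the minimum of 10 counts on average, and of these 12 rose and 46 fell. The median change was -0.071 on the log2 scale per 1% formaldehyde over the tested fragments of the region and -0.002 over all tested fragments. The rising fragments lay close to the promoter or at 30 to 40 kb: 7 of 21 tested rose in the nearest 10 kb, 2 of 19 at 10 to 20 kb and 3 of 27 at 30 to 40 kb, and 0 elsewhere. Falling fragments lay in the same zones and in all others: 1, 6 and 4 fell in these 3 zones, 7 at 20 to 30 kb and 9 at 40 to 50 kb. From 50 kb on, 28 of 112 fragments passed the count minimum, and of these 19 fell and 0 rose. The 6 libraries of 0.5 to 2% supplied 64.9% of all interactions, those with other chromosomes included. In the region they held a mean of 4273 interactions per library, beside 4372 in the 6 libraries of 3 to 5%. At 50 to 60 kb, however, the libraries of 3 to 5% supplied only 483 of the 1249 counts of the 12 fixed libraries. Passing the minimum that far out thus favours fragments that were high at 0.5 to 2%. The sums over zones, which use every fragment, carry no such filter.

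These calls rest on the first replicates and on the scaling. With the replicate 1 libraries left out, edgeR called 0 of 91 tested fragments of the region in either direction, and 0 of the 215 fragments tested in all. An unadjusted p under 0.05 was found for 29 of the 91 and for 59 of the 215. With the replicate 2 libraries left out, 6 of 98 tested fragments of the region rose and 36 fell, beside 43 and 47 of the 224 fragments tested in all. Scaled to the total of each library, where the median of all tested fragments moved to 0.417, 57 fragments of the region rose and 3 fell, beside 55.8% and 1.02% of all tested fragments. Scaled to the total of chromosome 14, which was added after the data were seen, 36 rose and 13 fell, beside 42.5% and 6.8% of all tested fragments. A fall in the first scaling is thus one relative to the other tested fragments, since 89.5% of the tested fragments of the region had a slope above 0 when scaled to library totals.

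The 3 rising fragments with the smallest adjusted p lie within 10 kb of the promoter. The closest fragment of the region, chr14:69901407-69901431, held 11.8 and 11.5 interactions per 100000 at 0.5%, 26.9 and 82.5 at 1%, 102 and 170 at 2%, 136 and 216 at 3%, 264 and 254 at 4%, and 222 and 325 at 5%. Its trend was 0.35 ± 0.066 (SE) per 1% on the log2 scale (edgeR, adjusted p = 0.00281). The fragment chr14:69900402-69900629 went from 96.4 and 68.9 per 100000 at 0.5% through 262 and 471 at 2% to 747 and 732 at 5%, a trend of 0.22 ± 0.045 (edgeR, adjusted p = 0.00318). The fragment chr14:69895558-69895654 (97 bp, 7.7 kb) went from 31.5 and 23.0 per 100000 through 128 and 226 to 271 and 370, a trend of 0.24 ± 0.064 (edgeR, adjusted p = 0.00959). In each of these 3, every library of 3 to 5% was above every library of 0.5 and 1%. All 3 lost the call without the replicate 1 libraries, with trends of 0.26, 0.17 and 0.18 (edgeR, adjusted p = 0.0735, 0.122 and 0.122, respectively). The last also lost it without the replicate 2 libraries, with a trend of 0.20 (edgeR, adjusted p = 0.0592).

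The 3 falling fragments with the smallest adjusted p lie 86.4 to 94.3 kb from the viewpoint and hold few counts. Most of these counts lie in the libraries of 0.5 to 2%, through which the fragments passed the count minimum, so that their trends are given as a description. The fragment chr14:69811709-69813182 held 10 and 5 interactions in the libraries of 0.5%, 17 and 6 at 1%, 10 and 7 at 2%, 2 and 6 at 3%, 2 and 2 at 4%, and 1 and 1 at 5%. Per 100000, this is 19.7 and 14.4 at 0.5% and 3.77 and 4.07 at 5%, with a trend of -0.97 ± 0.136 per 1% (edgeR, adjusted p = 0.000889). The fragment chr14:69808424-69809614 held 35.4 and 20.1 per 100000 at 0.5% and 7.54 and 4.07 at 5%, a trend of -1.05 ± 0.148, and chr14:69815720-69818062 held 15.7 and 25.8 and then 3.77 and 8.13, a trend of -0.88 ± 0.127 (edgeR, adjusted p = 0.000889 for both). With no count filter, none of the 3 was called (edgeR, adjusted p = 0.291 for each). Scaled to the total of each library, the first and the second were called, and the last had a trend of -0.37 that was not called (edgeR, adjusted p = 0.0589). In the libraries of 5% they rest on 1 or 2 interactions each.

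**Figure D4:**
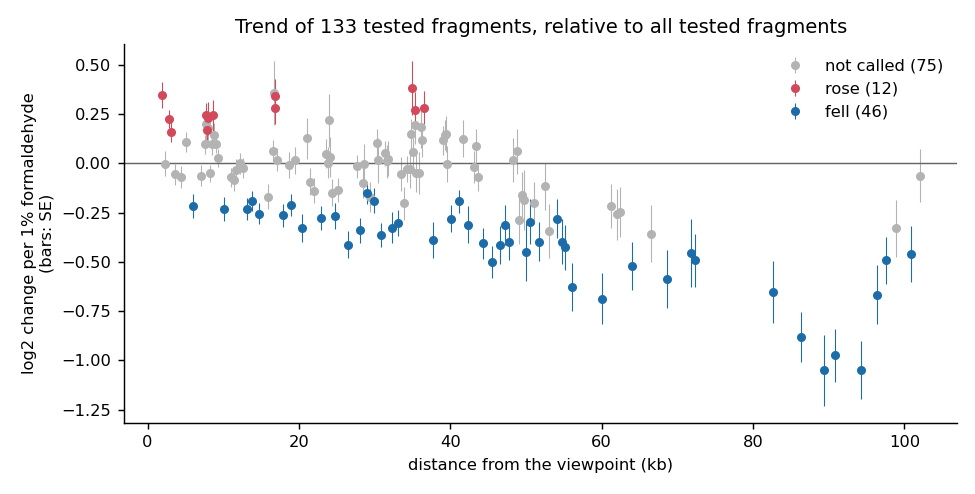
Change of contact per 1% formaldehyde (log2, edgeR, relative to all tested fragments; bars, SE) of the 133 tested fragments of the region against distance from the viewpoint. The 12 rising fragments lie within 20 kb or between 30 and 40 kb. Falling fragments lie in every zone of 10 kb, and all 19 called fragments beyond 50 kb fell. The far fragments are the 28 of 112 that passed the count minimum.

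The region was less contacted than the same distances on the higher-coordinate side in all 18 low-input libraries and in 10 of 12 fixed libraries. The log2 ratio of the region to the other side was -0.53 and -0.25 in the unfixed libraries, on 20 to 43 interactions a side. It was 0.16 and -0.05 at 0.5%, 0.06 and -0.54 at 1%, and -0.41 and -0.71 at 2%. At 3 to 5% it lay between -0.74 and -0.65 in 6 libraries. Pearson's r with formaldehyde over the 7 means was -0.802 (exact permutation test, adjusted p = 0.0288). It was -0.689 without the replicate 2 libraries (exact permutation test, adjusted p = 0.0994), where the call was lost. In the low-input libraries the ratio ranged from -0.82 to -0.43, with a mean of -0.62 ± 0.103 (SD, n = 18).

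The difference between the sides was not spread evenly over distance. Per kb of listed fragments, the region and the other side were level in the nearest 10 kb of the low-input libraries, with a mean log2 ratio of 0.01 ± 0.140 (SD, n = 18). In this zone the sides are not fully matched in either table. The fragments of the region reach 69901431, closer to the viewpoint at about 69903300 than those of the other side, which start at 69905816. The region was lower by 0.71 at 10 to 20 kb, by 0.76 at 20 to 30 kb, by 1.43 at 30 to 40 kb, by 1.21 at 40 to 50 kb and by 1.17 at 50 to 60 kb. It was lower in all 18 libraries in each of these 5 zones but that of 20 to 30 kb, where it was lower in 17. In each of the 5, the adjusted p over 11 zones was at most 3.3e-05 by an exact sign-flip permutation test, added after the data were seen. At 60 to 70 kb it was lower by 0.83 ± 1.05, in 15 of 18 libraries (exact sign-flip permutation test, adjusted p = 0.003). Between 70 and 100 kb no zone of the low-input libraries passed this test, with mean log2 ratios between -0.38 and 0.24. The part beyond 100 kb, with few counts, was higher on the side of the region by 1.64 ± 1.70 (exact sign-flip permutation test, adjusted p = 0.0022, n = 18). Over the 6 fixed concentrations, the widest gap of the first 60 kb was likewise at 30 to 40 kb, -1.73 ± 0.470 (SD, n = 6), where the other side held 5.35% of all interactions against 1.30% for the region. The nearest 10 kb were higher on the side of the region in all 12 fixed libraries, by 0.45 ± 0.202. With 6 concentrations the exact sign-flip permutation test cannot go below p = 0.031, and both values reached it (adjusted p = 0.043). Farther out, the region was lower at 70 to 80 kb (-0.35) and higher at 90 to 100 kb (0.33) and beyond 100 kb (1.62). Each of these also had an adjusted p of 0.043 by this test over the 6 concentrations. The zones of 20 to 30, 60 to 70 and 80 to 90 kb did not pass it.

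The trend on formaldehyde also differed in its make-up between the sides, in the zones between 10 and 50 kb. On the higher-coordinate side, 48 of 156 tested fragments rose and 21 fell, and at 30 to 40 kb 20 of 30 rose and 0 fell. At 30 to 40 kb on the side of the region, 3 of 27 rose and 4 fell. In the nearest 10 kb, 6 of 19 rose on the higher-coordinate side and 7 of 21 on the side of the region. From 50 kb on, 0 of the tested fragments rose on either side. The higher-coordinate side had 6 of 20 falling at 50 to 60 kb, 4 of 9 at 60 to 70 kb, 6 of 8 at 70 to 80 kb and 1 of 1 at 80 to 90 kb. No fragment farther out was tested on that side. In the region, 6 of 9 fell at 50 to 60 kb, 3 of 7 at 60 to 70 kb, 2 of 2 at 70 to 80 kb and 3 of 3 at 80 to 90 kb. From 50 kb to its end, 19 of 28 fell. These counts were set side by side with no test of the difference.

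**Figure D5:**
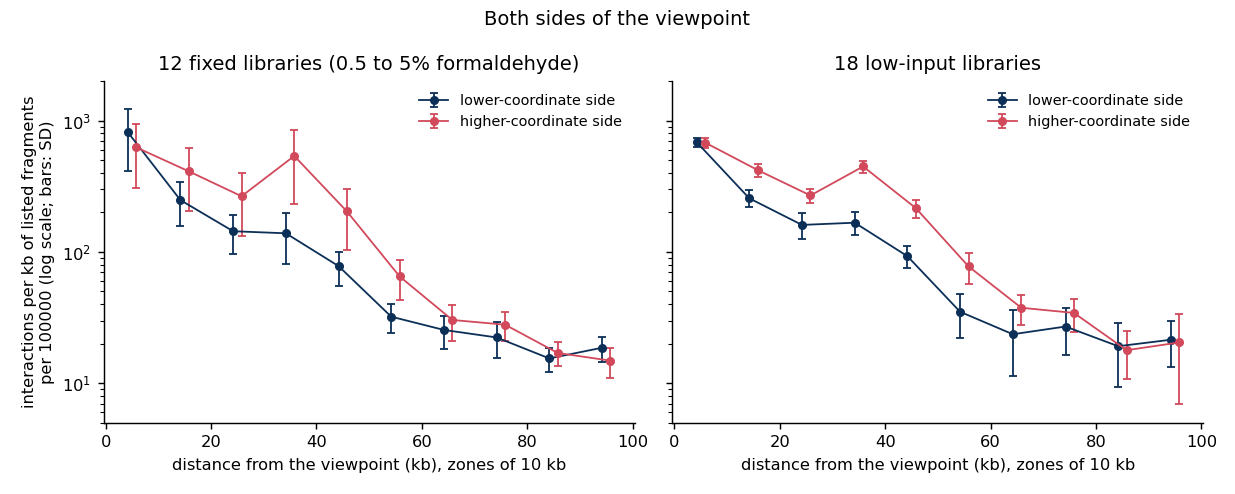
Interactions per kb of listed fragments, per 100000 interactions of a library (log scale; bars, SD over libraries), in zones of 10 kb on both sides of the viewpoint. In these means the region (lower-coordinate side) is nearly level between 20 and 40 kb, which does not hold at every concentration of formaldehyde. The other side has a second maximum at 30 to 40 kb. At 80 to 90 kb the means of both sides are close, and the part beyond 100 kb is not drawn.

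No difference in the level of the region was found between the protocols of library preparation, with 9 libraries each. The share of all interactions was 12.8%, 13.4% and 13.8% in the 200 ng LI-Capture-C libraries, 13.8%, 13.5% and 14.1% at 100 ng, and 11.5%, 13.3% and 14.1% at 50 ng. In Tag-Capture-C it was 12.7%, 12.9% and 12.9% at 200 ng, 14.7%, 13.1% and 13.8% at 100 ng, and 13.0%, 14.8% and 13.1% at 50 ng. The groups overlapped at every input. The mean was 13.44% in Tag-Capture-C and 13.36% in LI-Capture-C, a difference of 0.0862 points (95% interval -0.728 to 0.901, exact permutation test within inputs, adjusted p = 0.829). As a share of chromosome 14, the region held 19.8% and 20.5%, a difference of -0.689 points (interval -1.89 to 0.508). The log2 ratio of the sides differed by 0.04 (interval -0.07 to 0.15) and the share within 20 kb by -1 point (interval -4.02 to 2.02). The exact permutation tests of these 3 gave an adjusted p of 0.678. These intervals bound the differences and do not show that the protocols act alike.

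Of 48 fragments with enough counts in the low-input libraries, 12 lie in the region. For the difference between protocols, 2 of the 48 were called, both lower in Tag-Capture-C (4.17%), and 1 of them was the leading fragment of the region, chr14:69900630-69901406. It held 792, 603 and 771 interactions per 100000 at 200 ng, 1000, 770 and 698 at 100 ng, and 474, 684 and 624 at 50 ng in LI-Capture-C. In Tag-Capture-C it held 353, 487 and 398, then 516, 583 and 689, then 531, 512 and 379. The 2 protocols did not overlap at 200 and 100 ng and overlapped at 50 ng. The log2 difference was -0.58 ± 0.117 (SE; edgeR, adjusted p = 0.000271), and it was called also with each library left out in turn (edgeR, adjusted p at most 0.0216). DESeq2 did not call it, with a log2 difference of -0.48 and an adjusted p of 0.136.

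No effect of input on the level of the region was found. Per doubling of input, the share of all interactions changed by 0.196 points in LI-Capture-C and by -0.382 points in Tag-Capture-C (exact permutation tests over 9 libraries each, adjusted p = 0.651 and 0.474). The share within 20 kb changed by -2.60 and -0.824 points (exact permutation tests, adjusted p = 0.246 and 0.474). None of the 8 slopes passed, and neither did any of the 4 differences in slope between the protocols (exact permutation tests, adjusted p at least 0.673). Without replicate 1 of 50 ng in LI-Capture-C, the slopes of the chromosome 14 share (-1.49 points) and of the log2 side ratio (-0.12) in that protocol passed (exact permutation tests, adjusted p = 0.0143 and 0.0250). In the 50 ng LI-Capture-C libraries the share within 20 kb was 58.7%, 67.1% and 66.4%, on 242 to 271 interactions in the region. Of the 48 tested fragments, 1 was called (2.08%), and it lies in the region: chr14:69887913-69889103 (1191 bp, 14.8 kb) changed by -0.71 ± 0.177 on the log2 scale per doubling of input (edgeR, adjusted p = 0.00524). It held a mean of 154 interactions per 100000 at 200 ng, 203 at 100 ng and 431 at 50 ng (n = 6 each), and in 1 library, LI-Capture-C 50 ng replicate 3, it held 1092 on 21 interactions. The other 5 libraries of 50 ng held between 158 and 512, which overlaps with the range of 92.9 to 256 at 200 ng. When that library, or replicate 1 of 200 ng or 3 of 100 ng in LI-Capture-C, or replicate 2 of 200 ng or of 50 ng in Tag-Capture-C, was left out, the fragment fell under the count minimum and was not tested.

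The profiles of the region were compared fragment by fragment across conditions. Over the 224 fragments, Pearson's r with the mean profile of 2% formaldehyde was 0.916 for 0.5%, 0.968 for 1%, and 0.970 to 0.973 for 3 to 5%. It was 0.602 for the unfixed libraries, whose counts are few. The mean LI-Capture-C and the mean Tag-Capture-C profile correlated with that of 2% formaldehyde by 0.951 and 0.944, and with each other by 0.937. Much of this lies in the fragments next to the promoter: over the 184 fragments beyond 20 kb, r with the 2% profile was 0.837 for 0.5%, 0.865 for LI-Capture-C and 0.877 for Tag-Capture-C, and 0.130 for the unfixed libraries. Between single replicates, the mean r beyond 20 kb fell from 0.908 at 2% formaldehyde to 0.530 and 0.626 at 200 ng and to 0.235 and 0.387 at 50 ng in LI-Capture-C and in Tag-Capture-C. In windows of 2 kb, the mean profiles of 50 ng correlated with that of 2% by 0.973 and 0.978. These correlations are across fragments, which are not independent replicates, and share the fall with distance.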

How the data were processed

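Unique interactions of the Slc25a37 viewpoint per DpnII restriction fragment were analysed in 32 libraries. The authors deposited these as raw counts, after removal of PCR duplicates, in 2 tables that cover 14 fixation and 18 low-input libraries. The submitters' processing notes name Trim Galore, Bowtie and mm9, with versions not given in the sources used here. How duplicates and fragments near the viewpoint were removed sets the counts, and the 5 tables of other viewpoints were not used. The members, zones and measures were chosen with earlier results of these data known.

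Shares were taken over all unique interactions of a library, and profiles were scaled to 100000. Side ratios used a pseudocount of 0.5 interactions and the fragments wholly within the same limits of distance on the higher-coordinate side. Distances are from the middle of a fragment to 69903300. Technical replicates were averaged, so that the 7 concentration means were the units of the formaldehyde tests. Exact two-sided permutation tests were run in Python 3.11.15 with SciPy 1.17.1, and protocol labels were exchanged within inputs over 8000 assignments. Single fragments were tested with edgeR 4.0.16 in R 4.3.3 (quasi-likelihood test, TMM factors over the tested fragments, mean count of at least 10, Benjamini-Hochberg adjustment over all tested fragments). Technical replicates were summed for the main fit of the trend on formaldehyde. DESeq2 1.42.0, other scalings, count filters and zone widths, windows of 2 kb, each library left out and a replicate block were alternatives. The edgeR tests were also run on simulated counts. Named fragments are the 8 with the highest mean share in each table, the 3 rising and 3 falling with the smallest adjusted p in each test, and the closest and farthest. No genome of the files' build was used here, so that exons and introns were not assigned to fragments. Depth per library was 1900 to 61802 interactions, and Wilson intervals (95%) cover counting error only.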

Additional observations from a re-analysis of the deposited data

How the results depend on the processing

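The rise of the region's share, of its share of chromosome 14 and of its share within 20 kb with formaldehyde kept their direction in every alternative run. They kept an adjusted p under 0.05 except within 0 to 2% and within 3 to 5%, where 4 and 3 means cannot reach it. Within these sets r was 0.823 and 0.543 for the share of chromosome 14, and 0.864 and 0.996 for the share within 20 kb. When 1 replicate of every concentration was left out, r was between 0.904 and 0.938, 0.766 and 0.794, and 0.910 and 0.927 for the 3 shares. The side ratio was lost without replicate 2 (r between -0.786 and -0.689) and without the 2 concentrations farthest from the median (r = -0.902, exact permutation test, adjusted p = 0.05). For the trend of single fragments, 12 members rose and 46 fell. The members that rose and fell were 57 and 3 with library totals, 36 and 13 with chromosome totals (chosen after seeing the data), 0 and 0 with no count filter (18 at an unadjusted p under 0.05), and 0 and 0 within 3 to 5% (7 unadjusted). Within 0.5 to 2% they were 0 and 15 of 98 tested members, beside 3 and 19 of the 223 fragments tested in all. The fits within 0.5 to 2% and within 3 to 5% took technical replicates, which are not independent, as separate samples. Their count minimum thus applied to the mean of single libraries. With no count filter and within 3 to 5%, 0 of all 50535 and 0 of all 218 tested fragments were called. Rising members were 22 of 188 with a minimum of 5 counts, beside 86 of all 454 tested fragments. They were 7 of 95 with a minimum of 20, beside 42 of 221, and 19 of 133 on log2 formaldehyde, beside 85 of 294. Falling windows of 2 kb were 15 of 52 in the region, beside 34 of all 188. Leaving out 1 concentration or replicate gave 0 to 12 rising and 0 to 49 falling members, beside 0 to 59 and 0 to 73 among all tested fragments. The lowest values are those without replicate 1, where 0 of all 215 tested fragments were called. The fragment chr14:69895558-69895654 turned to -0.122 within 3 to 5%.

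Between protocols, the difference in the region's share ran from -0.160 to 0.278 points with 1 library left out, and the share within 20 kb turned to 0.354 points without fragments within 5 kb and to 0.322 points for a zone of 40 kb. No difference was called in any alternative. The called member between protocols was lost (0 members) with DESeq2, no count filter, windows, 100 ng only and 50 ng only. With 200 ng only, 1 of 29 tested members rose and 1 fell, beside 1 and 1 of all 95 tested fragments. For the slope on input with 1 library left out, the share ran from -0.196 to 0.410 in LI-Capture-C, and the side ratio from -0.0430 to 0.00770 in Tag-Capture-C. In LI-Capture-C, without 50 ng replicate 1, the slope of the chromosome 14 share was -1.49 (range to -0.587) and that of the side ratio -0.119 (range to -0.0383), and both were called (exact permutation tests, adjusted p = 0.0143 and 0.0250). The fragment called on input was lost (0 members) with a minimum of 20 counts, no count filter and windows. It was under the count minimum with 1 of 5 libraries left out, and the count ranged from 0 to 1.

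Replicate numbers are shared between groups, but same-numbered libraries did not deviate together in every pair (median correlation 0.121 in the fixation and -0.0124 in the low-input table), so that they were not taken as paired. For fixation, 10 of 12 libraries correlated best with their own number, which is a hint from the data. With a replicate block, which for formaldehyde was fitted on the 12 libraries as separate samples, 10 of 95 members rose and 37 fell. These were as many as in that fit without the block. Of all 221 tested fragments, 50 rose and 53 fell with the block, and 49 and 52 without it. With the block, 1 fell between protocols and 1 fell with input, and the differences between protocols were 0.0862, -0.689, 0.0378 and -1 as before, with no change of call. The count minimum limits the single fragments: 12 of 224 could be tested in the low-input libraries.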
